A study of Mus musculus with 10 samples.

Results

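Transcripts of skeletal muscle were followed in RNA sequencing of inguinal white adipose tissue, a subcutaneous fat pad of the mouse that lies close to skeletal muscle of the groin and flank. A list of 39 skeletal muscle genes was matched by gene identifier and symbol in a count table of 52636 identifiers, and all 39 were found. They comprise 12 genes typical of fast fibres, 7 typical of slow fibres and 20 that fibres of both kinds use. The 10 libraries came from C57BL/6 mice of 6 months on a diet with 65% fat, and their labels give the length of the diet as 16 weeks (diet), 12 weeks (description) or 4 months (treatment). The 5 libraries written control 1 to 5 are labelled wild type, and the growth protocol and titles give these mice floxed TCF7L2 alleles (F/F) without Cre. The other 5, knockout 1 to 5, carried the same floxed alleles and Adp-Cre, a Cre recombinase directed to adipocytes and not to muscle fibres. Tcf7l2 is a transcription factor of the Wnt pathway. Whole pieces of tissue were used, so fewer cells of a type and less RNA per cell cannot be told apart. The labels do not state that each library is a separate mouse, and if they are not, every p-value below covers the spread of these samples alone, which may be technical.

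A skeletal muscle fibre contracts when calcium, released from the sarcoplasmic reticulum, binds troponin and frees actin for the motor protein myosin. Fast fibres and slow fibres build this apparatus from different genes of the same families, such as separate myosin heavy chains, light chains and troponins, while skeletal actin, titin and the muscle creatine kinase are made in both. Mature white adipocytes do not build sarcomeres, so these transcripts are commonly read as markers of muscle fibres in samples of fat. Some members are known in other cells too, such as Tpm2 in smooth muscle and Pvalb in neurons.

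The promoters of 3 well-known muscle genes among the members, each highest in control 5, knockout 1 and knockout 3, are shown because many muscle genes are switched on by the same regulators, the MyoD family, which bind E-boxes (CANNTG). They are the 250 bases before the RefSeq start, build GRCm38.p6, written 5′ to 3′ on the strand of the gene with E-boxes in capitals. Acta1 encodes skeletal alpha-actin (chr8:123894776-123895025, minus strand), Ckm the muscle creatine kinase (chr7:19410844-19411093, plus strand) and Myh4 the myosin heavy chain of the fastest fibres, type 2B (chr11:67237562-67237811, plus strand).
Acta1: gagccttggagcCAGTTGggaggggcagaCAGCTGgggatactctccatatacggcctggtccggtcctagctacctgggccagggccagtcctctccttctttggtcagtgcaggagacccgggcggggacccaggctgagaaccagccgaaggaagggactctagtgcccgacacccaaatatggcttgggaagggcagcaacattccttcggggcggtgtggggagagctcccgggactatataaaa
Ckm: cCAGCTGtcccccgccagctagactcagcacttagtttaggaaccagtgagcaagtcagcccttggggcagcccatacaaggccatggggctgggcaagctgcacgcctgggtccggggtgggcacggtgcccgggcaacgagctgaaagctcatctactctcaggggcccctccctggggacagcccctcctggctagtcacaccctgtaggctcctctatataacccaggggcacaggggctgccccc
Myh4: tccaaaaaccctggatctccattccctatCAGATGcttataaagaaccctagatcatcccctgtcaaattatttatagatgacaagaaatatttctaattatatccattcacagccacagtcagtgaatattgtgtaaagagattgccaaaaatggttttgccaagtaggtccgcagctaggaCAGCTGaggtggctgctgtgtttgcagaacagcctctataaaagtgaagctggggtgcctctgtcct
All 3 hold the E-box CAGCTG. A promoter was found for 30 of the 39 members. Searched on both strands, CAGCTG was present in 12 of these 30 (40.0%), against 13.0% of 32851 RefSeq promoters of the same length. Any CANNTG, which includes CAGCTG, was present in 24 of 30 (80.0%) against 66.2%. The MEF2 site, bound by the MEF2 partners of the MyoD family, was found in 5 member promoters (16.7% against 2.92%), the CArG box of serum response factor in 4 (13.3% against 1.47%) and TATAAA, which can overlap a MEF2 site, in 5 (16.7% against 12.4%). These are matches of letters, not sites shown to be bound.

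The libraries held between 14032866 and 17782073 counts, with no difference in depth found between the groups (two-sided exact permutation p = 0.944, n = 5 per group). A floor of 3 counts corresponded to 0.172 to 0.205 CPM, a count scaled to a common library total with TMM factors, which is the unit used throughout. Intervals and floors cover counting error only, since PCR reads without molecular identifiers are not independent molecules. Tcf7l2 stood at 9.16 to 11.4 CPM in the controls and 5.57 to 6.2 CPM in the knockouts, with no overlap (log2 fold change -0.87, SE 0.096, edgeR quasi-likelihood adjusted p = 0.00061; exact permutation p = 0.0079, the smallest that 5 against 5 can give). Markers of mature adipocytes, such as Adipoq and Plin1, summed over 10 genes to between 27291 and 37620 CPM in every library.

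Muscle transcripts were a small and very uneven share of these libraries. Summed over the 39 members, the controls had 122, 128, 133, 257 and 893 CPM, in the order of their numbers, and the knockouts had 1252, 277, 1036, 141 and 153 CPM. Knockout 1, knockout 3 and control 5 stood far above the rest, knockout 2 and control 4 came next, and the groups overlapped. As a share of all counts, the members ran from 0.0124% (95% Wilson interval 0.0119 to 0.0129) in control 1 to 0.128% (0.126 to 0.130) in knockout 1. The highest library lay 7.3-fold above the lowest among the controls and 8.87-fold above it among the knockouts. Without Tpm2, Eno3 and Ldb3, the members taken here as made outside skeletal muscle too, these ratios were 8.35 and 9.78. Any count at all was seen for 38 of the 39 members.

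**Figure D1:**
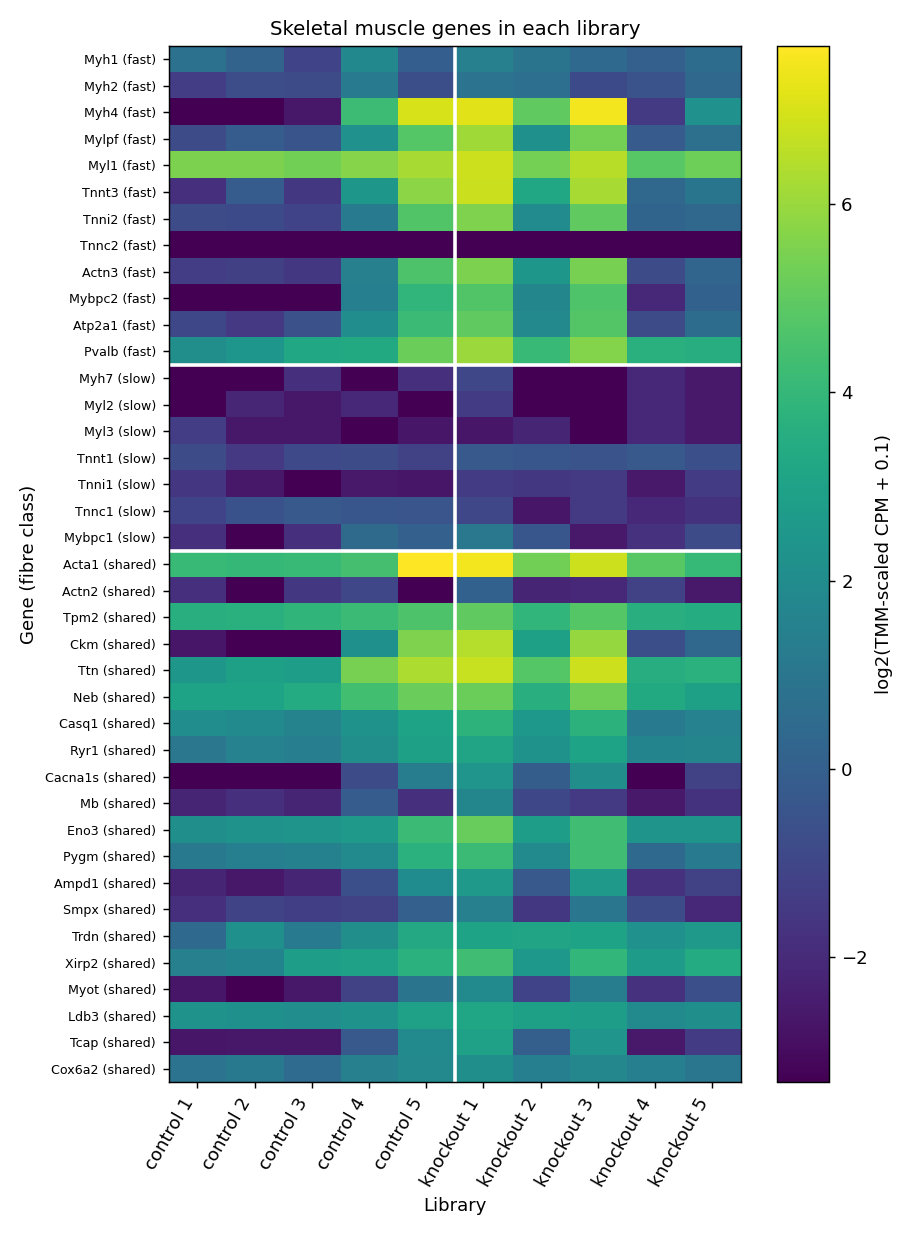
Level of each of the 39 skeletal muscle genes (rows, with fibre class) in each of the 10 libraries (columns), as log2 of TMM-scaled CPM plus 0.1; the vertical white line parts controls from knockouts and the horizontal lines part the classes. Control 5, knockout 1 and knockout 3 are bright for most fast and shared genes, while the slow genes are dark in every library.

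The same few libraries were on top for most members. Knockout 1 was the highest library for 27 of the 39. Control 5, knockout 1 and knockout 3, picked out after the values were seen, were the 3 highest libraries for 25 of the 39 members, namely 9 of 12 fast, 16 of 20 shared and 0 of 7 slow genes. Their exact order was knockout 1, then knockout 3, then control 5 for 18 of the 39. Of all 15927 genes tested, 213 (1.34%) had the same 3 libraries on top. Control 4 and knockout 2 completed the 5 highest for 19 members, against 128 genes in all (0.804%). This order cuts across the genotype, as it puts 2 controls and 3 knockouts above 3 controls and 2 knockouts. The running numbers 1 to 5 and 6 to 10 in the submitters' titles follow the genotype, and whatever they stand for cannot be told apart from it. The titles carry a second number, whose meaning the labels do not state, of 7, 13, 16, 4 and 3 for control 1 to 5 and of 1, 6, 9, 17 and 11 for knockout 1 to 5. The 5 libraries with the highest summed muscle level carry 1, 3, 4, 6 and 9, and the other 5 carry 7, 11, 13, 16 and 17. The part of this number in the muscle values was not tested.

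Among the motor proteins of fast fibres, Myh4 spanned the widest range. Controls 1 to 5 held 0, 0, 0.0615, 18.3 and 129.8 CPM of it, and knockouts 1 to 5 held 145, 32.1, 180.1, 0.265 and 4.65 CPM. Both groups thus held libraries with almost no Myh4 and libraries above 100 CPM, and they overlapped. Mylpf, the regulatory light chain of fast myosin, was at 0.476, 0.828, 0.615, 4.66 and 27.5 CPM in the controls and 69.0, 4.44, 41.6, 0.796 and 1.57 CPM in the knockouts, with the same 5 libraries on top. Mybpc2, the fast myosin-binding protein C that tunes cross-bridge formation, had no count in control 1, 2 and 3 and stood at 14.9 CPM in control 5, 25.3 in knockout 1 and 25.1 in knockout 3.

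The other myosin heavy chains did not follow Myh4. Myh1 encodes the heavy chain of type 2X fibres and Myh2 that of type 2A fibres. Myh1 was at 1.61, 1.02, 0.369, 3.45 and 0.879 CPM in the controls and 2.64, 1.76, 1.25, 0.929 and 1.37 CPM in the knockouts. Myh2 was at 0.298, 0.509, 0.492, 2.23 and 0.527 CPM in the controls and 1.72, 1.52, 0.462, 0.597 and 1.16 CPM in the knockouts. Control 4 was the highest library for both, and control 5 and knockout 3, rich in Myh4, lay within the range of control 1 to 3 and knockout 4, which had almost none. Myh1, Myh2 and Myh4 are near-identical copies side by side on chromosome 11 (Myh2 at chr11:67171027-67197517, Myh1 at chr11:67200052-67224575, Myh4 at chr11:67238029-67260446, GRCm38, plus strand), so the split of reads between them is uncertain.

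Per kilobase of exon, Myh4 made up 98.9% of the 4 adult heavy chains Myh1, Myh2, Myh4 and Myh7 in control 5, 97.2% in knockout 1 and 99.1% in knockout 3, with 2242, 2611 and 2756 counts behind them. It made up 91.6% in knockout 2 (582 counts), 78.0% in control 4 (354 counts) and 66.7% in knockout 5 (106 counts). Control 1 and control 2 had 0 counts of Myh4 among only 32 and 24 heavy chain counts, and knockout 4 had 15.2% of 29. The libraries richest in muscle transcripts were thus also those whose heavy chain reads were nearly all assigned to the type 2B form. Myh4 is itself part of the summed muscle level, so these are not separate observations. The libraries poorest in muscle transcripts held few heavy chain counts.

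Thin filament genes of fast fibres moved across the libraries with Myh4. Tnnt3 (chr7:142498836-142516009, GRCm38, plus strand) is the fast troponin T, which ties the troponin complex to tropomyosin. It stood at 0.179, 0.828, 0.246, 5.48 and 54.0 CPM in the controls and 110.5, 9.67, 76.3, 1.19 and 1.85 CPM in the knockouts. Tnni2, the fast inhibitory troponin, ran from 0.369 to 25.7 CPM in the controls and from 1.06 to 46.9 in the knockouts. Actn3, the alpha-actinin of fast Z-discs, ran from 0.246 to 24.5 and from 0.465 to 45.0 CPM. For both, control 5, knockout 3 and knockout 1 were again the 3 highest. Tnnc2, the fast calcium-binding troponin, had 0 counts in every library, which allows up to 3 counts in each. Of its exon bases, 74.0% lie also in Ube2c on the opposite strand, which had 54 to 123 counts per library, and the part of this overlap in the zero was not tested.

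Calcium handling genes of fast fibres were highest in the same 3 libraries. Atp2a1, the calcium pump SERCA1 that refills the reticulum, ran from 0.255 to 18.1 CPM in the controls and from 0.465 to 31.9 in the knockouts. Pvalb, a calcium buffer that speeds relaxation, was at 4.23, 5.41, 9.65, 10.1 and 37.0 CPM in the controls and 65.7, 17.4, 48.9, 12.7 and 11.3 CPM in the knockouts. Each knockout exceeded 4 of the 5 controls for Pvalb, and control 5 exceeded knockout 2, 4 and 5. Myl1, the essential light chain of fast myosin, was at 45.4, 45.1, 40.3, 50.4 and 74.5 CPM in the controls and 115, 41.7, 90.3, 28.3 and 38.3 CPM in the knockouts. Thus Myl1 was present at 45.1 CPM or more where Myh4 had no count, and Myl1 and Pvalb made up most of the fast counts in control 1 to 3.

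**Figure D2:**
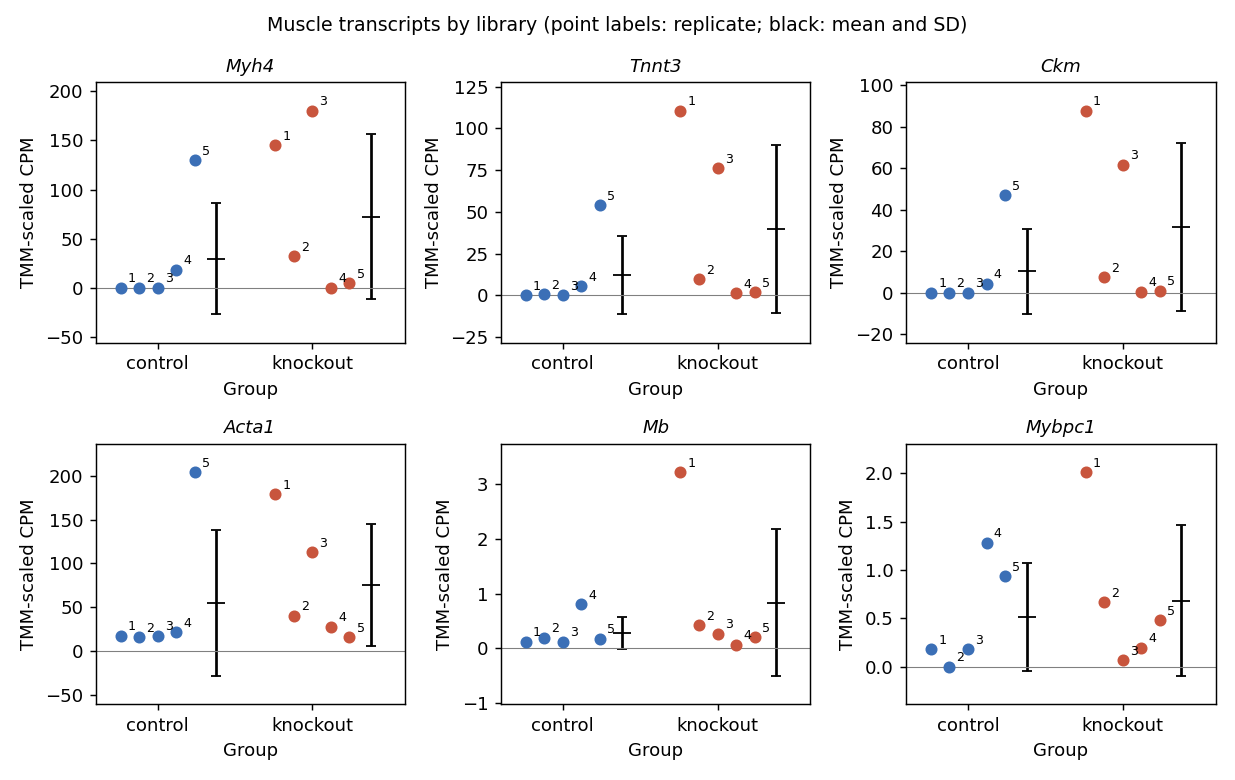
TMM-scaled CPM of Myh4, Tnnt3, Ckm, Acta1, Mb and Mybpc1 in each library, by group (n = 5 per group); points carry the replicate number and black marks give mean and SD. For the first 4 genes control 5, knockout 1 and knockout 3 stand above the rest, for Mb and Mybpc1 knockout 1 is highest and knockout 3 is low, and the groups overlap in each panel.

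Slow fibre genes were near the floor in every library. Their 7 members together reached 26, 17, 27, 39 and 38 counts in control 1 to 5 and 73, 29, 18, 23 and 25 counts in knockout 1 to 5. On the CPM scale the sums ran from 1.08 to 2.64 in the controls and from 1.19 to 4.19 in the knockouts, a range of 2.44-fold and 3.53-fold. The fast sums ran from 52.9 to 408 and from 46.9 to 659 CPM, and without Myl1 and Pvalb from 2.95 to 296 and from 5.91 to 478 CPM, a range of 100.3-fold and 81.0-fold. Knockout 3, for example, had 565 CPM of fast genes and the second lowest slow sum of all 10 libraries, 1.19 CPM. That slow sum rests on 18 counts, too few for a firm rank.

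**Figure D3:**
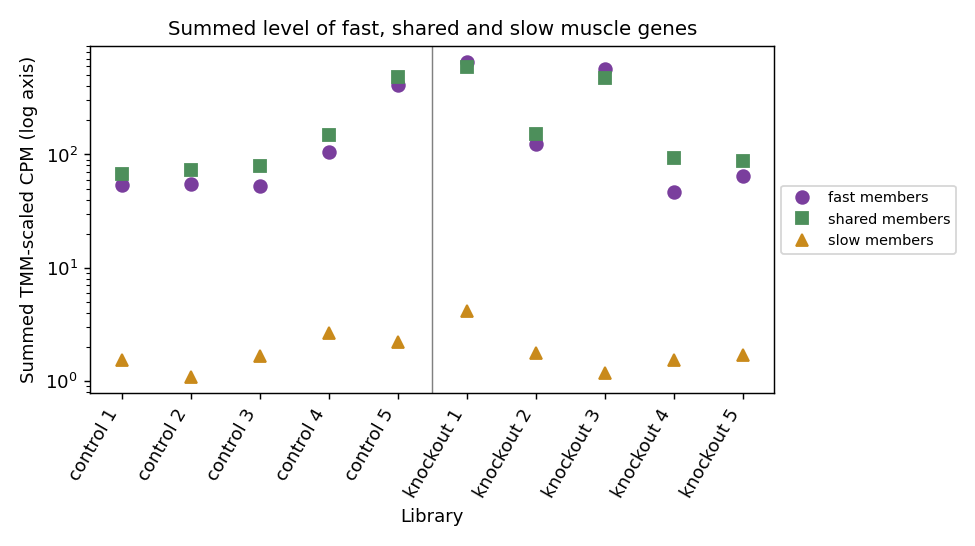
Summed TMM-scaled CPM (log axis) of the 12 fast, 20 shared and 7 slow genes in each library. Fast and shared sums rise together in control 5, knockout 1 and knockout 3, to between 408 and 659 CPM, while the slow sums stay between 1.08 and 4.19 CPM.

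Myh7, the slow heavy chain, had at most 7 counts in a library, and Myl2, its regulatory light chain, at most 5. Myl3, the essential light chain, had at most 5 and Tnni1, the slow troponin I, at most 5. Tnnt1, the slow troponin T (chr7:4504570-4516382, GRCm38, minus strand), was at 0.476, 0.255, 0.430, 0.473 and 0.352 CPM in the controls and 0.747, 0.669, 0.594, 0.730 and 0.548 CPM in the knockouts. It was the only one of the 39 members whose groups did not overlap, on 4 to 8 counts in each control and 8 to 13 in each knockout; of all tested genes, 8.99% had groups that did not overlap and 4.55% had every knockout above every control. Tnnt1 was too low to be tested. Without a filter on low counts, its log2 fold change was 0.75 (SE 0.39, edgeR adjusted p = 0.333).

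Tnnc1, the troponin C of slow fibres and heart, ran the other way, at 0.357, 0.573, 0.738, 0.676 and 0.645 CPM in the controls and 0.402, 0.0608, 0.264, 0.133 and 0.205 CPM in the knockouts. Control 1 lay below knockout 1, and otherwise the knockouts were lower. Without a filter the log2 fold change was -1.42 (SE 0.48, edgeR adjusted p = 0.0732). Mybpc1, the slow myosin-binding protein C (chr10:88518279-88605152, minus strand), was at 0.179, 0, 0.184, 1.28 and 0.938 CPM in the controls and 2.01, 0.669, 0.066, 0.199 and 0.479 CPM in the knockouts. It was high in knockout 1 and control 4 and had a single count in knockout 3. The highest library was thus control 3 for Tnnc1 and knockout 1 for Mybpc1 and Tnnt1, with knockout 4 next for Tnnt1 and control 4 next for Mybpc1.

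Setting fast genes beside their slow partners per kilobase of exon gave the balance within a library, shown here first for troponin T. Tnnt3 exceeded Tnnt1 214-fold in control 5 (exact interval 97.9 to 585), 206-fold in knockout 1 (120.1 to 388) and 179-fold in knockout 3 (94.0 to 392). The ratio was 16.1 in control 4, 20.1 in knockout 2 and 0.522 in control 1, where 3 and 8 counts were compared. The ratios of Myh4 to Myh7, Mylpf to Myl2 and Tnni2 to Tnni1 were also highest in control 5, knockout 1 and knockout 3. Where a slow gene had no count, 3 were taken. Other pairs differed. Myl1 exceeded Myl3 at least 150.2-fold in every library, on 5 or fewer Myl3 counts. Mybpc2 exceeded Mybpc1 19.9-fold in control 5, 15.8-fold in knockout 1 and 478-fold in knockout 3, the last on 1 Mybpc1 count. Tnnc2 had no count, beside 1 to 12 of Tnnc1. For the summed classes, the log2 ratio of fast to slow per kilobase was 5.08, 5.22, 4.87, 5.34 and 7.48 in the controls and 7.86, 6.54, 8.73, 5.42 and 5.63 in the knockouts. Without Myl1 and Pvalb it was 0.79, 1.37, 0.41, 3.69 and 6.80 in the controls and 7.24, 5.14, 8.11, 2.07 and 3.00 in the knockouts. The fast class holds 12 genes and the slow class 7. Equal levels per gene would thus already give a positive log2 ratio, with or without Myl1 and Pvalb. Without these 2 genes, control 1 to 3 rested on 63, 66 and 48 fast counts against 26, 17 and 27 slow counts. The fast sum exceeded the slow sum in every library, and most in control 5, knockout 1 and knockout 3. The order among these 3 rests on few slow counts and is not firm. By contrast, the Tnnt3 to Tnnt1 ratio was below 1 in control 1 (exact interval 0.0892 to 2.18) and control 3 (0.796, 0.171 to 3.13). Both intervals include 1, so that direction is not firm.

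Of the genes that both fibre kinds use, Acta1 was the most abundant per kilobase in the 3 rich libraries, at 133 CPM per kilobase in control 5, 117 in knockout 1 and 73.6 in knockout 3. Its CPM was 17.6, 15.7, 17.4, 21.3 and 204 in the controls and 179, 40.4, 113, 28.1 and 16.2 in the knockouts. It stood above 15 CPM in every library, and control 5 was highest. Ckm, which regenerates ATP from phosphocreatine, was at 0.0595, 0, 0, 4.46 and 47.1 CPM in the controls and 87.7, 7.48, 61.8, 0.531 and 1.16 CPM in the knockouts. In control 1 to 3 Ckm had at most 1 count in all, while Acta1 had 246 to 296 in each. Of the exon bases of Ckm, 15.5% lie also in a gene on the opposite strand.

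The giant proteins and the Z-disc genes differed widely in their ranges. Titin, the molecular spring encoded by Ttn, was at 5.59, 7.45, 6.88, 42.2 and 79.3 CPM in the controls and 108, 27.2, 114, 11.5 and 12.9 CPM in the knockouts. Per kilobase, this long transcript reached only 0.679, 0.921 and 0.972 CPM in control 5, knockout 1 and knockout 3. Neb, the ruler of the thin filament, ran from 8.15 to 35.5 CPM in the controls and from 7.53 to 38.8 in the knockouts, and Ldb3, a Z-disc adaptor, from 4.12 to 7.68 and from 3.65 to 8.79 CPM. Tcap, which caps titin at the Z-disc, ran from 0.0595 to 3.58 and from 0.0664 to 7.81 CPM, and Myot, which binds actinin there, from 0 to 1.76 and from 0.199 to 3.73 CPM. Xirp2, an actin-binding repeat protein, ran from 2.68 to 12.8 and from 5.78 to 19.9 CPM. Actn2, the alpha-actinin of all sarcomeres, had 0 counts in control 5 and 17 in knockout 1. Tpm2, beta-tropomyosin, was above 11 CPM in every library and differed 1.99-fold among the controls and 2.84-fold among the knockouts. Smpx, a small muscle protein, ran from 0.179 to 0.938 and from 0.137 to 2.70 CPM.

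In excitation-contraction coupling, the voltage sensor and the release channel had unequal ranges. Cacna1s, the voltage sensor in the surface membrane, had no count in control 1, 2, 3 and knockout 4 and stood at 2.46 CPM in control 5, 5.29 in knockout 1 and 4.16 in knockout 3. Ryr1, the calcium release channel that it opens, ran only from 1.96 to 7.5 CPM in the controls and from 2.99 to 8.5 in the knockouts. Casq1, which stores calcium in the reticulum, ran from 2.95 to 8.32 and from 2.26 to 13.8 CPM. Trdn, which links Casq1 to the release channel, was at 1.25, 4.46, 2.21, 4.26 and 9.73 CPM in the controls and 8.10, 8.39, 8.11, 4.58 and 5.82 CPM in the knockouts. All knockouts lay above 4 of the 5 controls for Trdn, and knockout 2 was its highest knockout, so it did not follow the order of Myh4.

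Genes of muscle energy supply fell between these patterns. Pygm, the glycogen phosphorylase of muscle, ran from 2.08 to 12.9 CPM in the controls and from 1.26 to 19.5 in the knockouts. Eno3, the enolase of muscle glycolysis, ran from 4.29 to 18.1 and from 5.07 to 34.4 CPM. Ampd1, the AMP deaminase of working muscle, ran from 0.0637 to 3.99 and from 0.199 to 6.07 CPM. Control 5, knockout 1 and knockout 3 were the 3 highest for each. Cox6a2, the muscle form of a cytochrome oxidase subunit, varied less, from 1.35 to 3.52 and from 1.92 to 4.37 CPM.

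Mb encodes myoglobin, the oxygen store of oxidative fibres. It was at 0.119, 0.191, 0.123, 0.811 and 0.176 CPM in the controls and 3.22, 0.426, 0.264, 0.0664 and 0.205 CPM in the knockouts. Knockout 1 stood alone, and control 5 and knockout 3 lay near the libraries poor in muscle transcripts. Of its exon bases, 31.9% lie also in genes on the opposite strand.

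The 2 knockout libraries richest in muscle transcripts lay close for most members and far apart for a few. Those few were named after the values were seen, and their intervals make no allowance for that choice. Over 33 members with enough counts, knockout 1 exceeded knockout 3 by a median of 1.28-fold, with 27 above 1, and quartiles of 1.04 and 1.5. Mb stood out at 12.2-fold (56 against 4 counts, exact interval 4.51 to 46.3). Myh2 was 3.73-fold higher (30 against 7 counts, 1.61 to 10.1) and Myh1 2.11-fold higher (1.21 to 3.81). Mybpc1 had 35 counts against 1, an interval of 5.12 to 1238, and Actn2 17 against 2, an interval of 1.76 to 66.1. Myh7 and Myl2 had 7 and 5 counts against 0, with no interval computed. Myh4 went the other way, at 0.806-fold. These intervals compare 2 libraries and not the genotypes. Knockout 1 was apart in B cell genes as well, summing to 394 CPM against 10.8 to 46.7 CPM in the other 9 libraries, and the part of this in its muscle values was not tested.

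**Figure D4:**
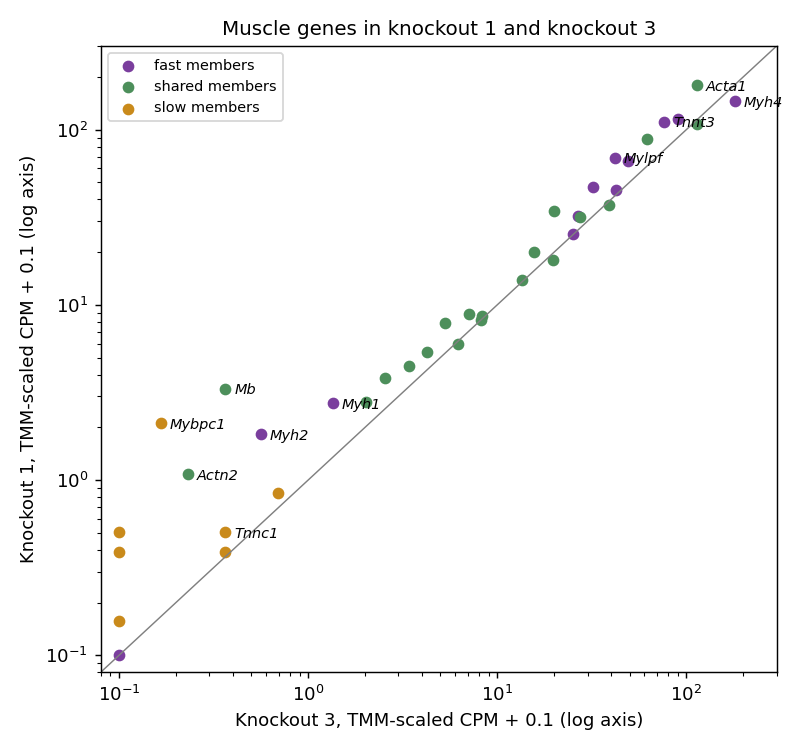
Each muscle gene in knockout 1 against knockout 3, as TMM-scaled CPM plus 0.1 on log axes, coloured by fibre class; the grey line marks equal levels. Most fast and shared genes lie on or just above the line, while Mb, Mybpc1, Myh2 and Actn2 lie well above it. The slow genes Myh7 and Myl2, with no count in knockout 3, lie well above it too.

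The comparison of genotypes asked whether muscle transcripts differed between knockout and control. No member passed the test. Of the 39, 24 had enough counts (10 fast, 14 shared and 0 slow), and edgeR's quasi-likelihood test called 0 higher and 0 lower at a Benjamini-Hochberg adjusted p below 0.05, where it called 12.9% of all 15927 tested genes (5.84% higher, 7.05% lower). At an unadjusted p below 0.05 it called 0 of the 24 members against 31.0% of all genes. DESeq2 called 0 members (16.8% of all genes), also at an unadjusted p below 0.05 (29.9% of all genes). Limma-voom with quality weights called 2 higher, and 22.6% of all genes (10.7% higher), with 6 members at an unadjusted p below 0.05 (37.8% of all genes).

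All 24 fold changes were positive, with a median log2 value of 0.89 against 0 for all tested genes. The median was 1.49 for the 10 fast and 0.68 for the 14 shared genes. These genes share the same 10 libraries, so their signs are not independent, and members that passed the filter on low counts do not stand for all 39. Without that filter, 36 of 38 values were positive, with a median of 0.90 against 0.03 for all genes (1.44 for 11 fast, 0.90 for 20 shared and 0.64 for 7 slow genes), and Tnnc1 and Myl3 (-0.31) were the negative ones. Mylpf differed by a log2 value of 1.77 (SE 1.2, adjusted p = 0.318), Tnnt3 by 1.70 (SE 1.3, adjusted p = 0.377) and Ckm by 1.61 (SE 1.3, adjusted p = 0.429). Myh4 had 1.28 (SE 1.4, adjusted p = 0.549), Acta1 0.45 (SE 0.8, adjusted p = 0.738) and Myh1 0.14 (SE 0.47, adjusted p = 0.864). For Myh4, Acta1 and Myh1 the standard error exceeded the change itself. The lowest adjusted p among the members was 0.193, for Pvalb at 1.23 (SE 0.61).

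Pvalb and Trdn were the members called by limma-voom, at 1.70 (adjusted p = 0.0394) and 1.20 (adjusted p = 0.0289). Without a filter on low counts, edgeR called Pvalb alone of 38 members (1.24, adjusted p = 0.0257), against 5.82% of all genes and 3.27% called higher, with 22 of the 38 at an unadjusted p below 0.05 (16.9% of all genes).

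The absence of calls turned on control 5. Without that library, 8 of the 25 members tested were higher in the knockouts, where 19.1% of 16167 genes were called and 8.57% called higher. They were Ckm at a log2 fold change of 4.89 (edgeR adjusted p = 0.0407), Tnnt3 at 4.63 (0.0348), Actn3 at 4.45 (0.0333), Tnni2 at 4.34 (0.0279), Mylpf at 3.88 (0.0477), Pvalb at 2.10 (0.0206), Acta1 at 2.07 (0.0307) and Trdn at 1.21 (0.0237). At an unadjusted edgeR p below 0.05, 18 of the 25 passed, against 35.0% of all genes. Control 5 was the highest control for each of these 8, so leaving it out had to raise their fold changes. Leaving out any other single library, edgeR called 0 members (0 to 2 at an unadjusted p below 0.05, against 24.5% to 32.5% of all genes). It then called 3.49%, 3.33%, 10.6% and 5.61% of all genes without control 1 to 4, and 14.1%, 6.17%, 9.13%, 10.3% and 5.45% without knockout 1 to 5. Without knockout 1, the log2 fold changes of Acta1 (-0.16), Myh1 (-0.11) and Myl1 (-0.04) changed sign. Knockout 1 was the highest knockout for each of these, so leaving it out had to lower their fold changes.

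**Figure D5:**
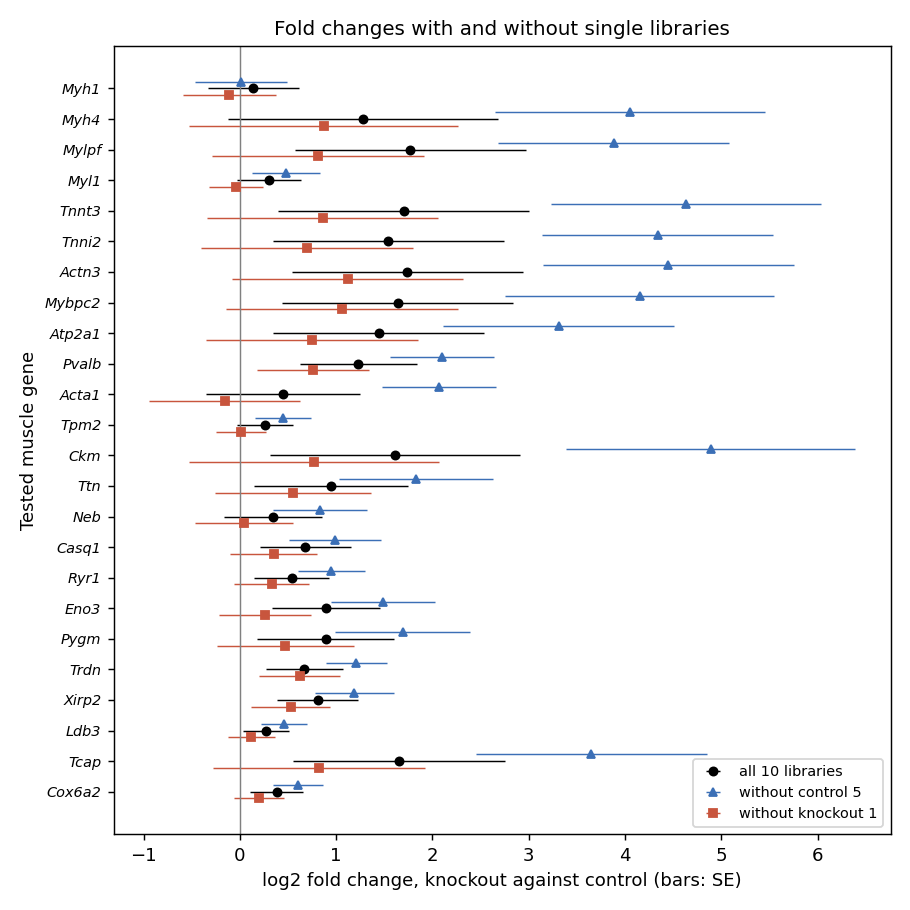
Log2 fold change of the 24 tested muscle genes, knockout against control (points, bars give the SE), with all libraries, without control 5 and without knockout 1. With all libraries the values run from 0.14 to 1.77 and none passed the test. Without control 5, 8 genes passed, and without knockout 1 all 24 lie closer to 0. Knockout 1 was the highest library for most members, so leaving it out had to lower most values.

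Spread within the groups was far larger for the members than for other genes. The median range from lowest to highest library, on log2 CPM with a prior count of 2, was 2.48 for all 39 members among controls and 2.55 among knockouts. For the 24 tested members it was 2.97 and 3.01, against 0.40 and 0.44 for all tested genes. By class it was 5.55 and 5.54 for fast, 2.16 and 3.01 for shared and 1.3 and 1.5 for slow genes. The prior count narrows the range of genes near the floor, so the slow range is not on a par with the fast one. Of the 100 tested genes with the largest spread, 15 were members among the controls and 13 among the knockouts. Trdn was unusual, with a 7.78-fold range among controls and 1.83-fold among knockouts, and Tnnt1 had the narrowest range of the slow genes on the log2 scale in both groups (1.87-fold and 1.36-fold on the CPM scale).

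Other skeletal muscle genes from a list of 50, such as those of the Z-disc and the calcium store, showed less of the pattern. Of 24 tested, 1 was higher, Srl, a calcium-binding protein of the reticulum (0.46, edgeR adjusted p = 0.0317), and 1 lower, Pln, the brake on the slow and cardiac calcium pump (-1.56, adjusted p = 0.0349). The other 22 did not pass, and the median was 0.24. Here and for the lists below, 5.84% of all tested genes were called higher and 7.05% lower. Their summed level ran from 466 to 662 CPM in the controls and from 542 to 718 in the knockouts, and control 5, knockout 1 and knockout 3 were again the 3 highest.

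Genes of muscle precursors were scarce. Of 12 listed, Pax7, Myf5, Myod1, Cdh15, Mymk and Mymx, which mark satellite cells, myoblasts and their fusion, never exceeded 3 counts in a library. Of the 2 tested, edgeR called 0, also at an unadjusted p below 0.05, and Mef2c, a partner of the MyoD family, had a log2 fold change of -0.07 (adjusted p = 0.769). Cardiac genes gave 0 higher and 1 lower of 3 tested, with Myh6, Nppa, Nppb, Myl7 and Nkx2-5 at 3 counts or fewer throughout, and the lower gene was Ryr2, the cardiac release channel (-0.49, adjusted p = 0.0182). Smooth muscle genes gave 0 higher and 2 lower of 8, Lmod1 (-0.57, adjusted p = 0.0341) and Smtn (-0.36, adjusted p = 0.0446). Their sum was highest in control 5, at 1088 CPM against 694 to 742 in the other controls and 703 to 906 in the knockouts. The listed genes did not rise together there. Among the controls, control 5 was highest for Acta2 (379.8 CPM), Synpo2 (611 CPM) and Lmod1. It was lowest for Myh11 (35.0 CPM), Smtn (15.2 CPM) and Actg2, and in between for Tagln, Cnn1, Myl9 and Myocd. The part of these cells in the muscle values was not tested.

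Brown and beige adipocytes share some mitochondrial genes with muscle. Cox7a1 ran from 4.93 to 7.47 CPM and Cox8b from 13.7 to 28.0 CPM over all 10 libraries, and neither had control 5, knockout 1 and knockout 3 as its 3 highest. Of the 10 genes of that list, 3 were higher (Dio2, Otop1 and Elovl3) and 1 lower (Cidea). The list of mature adipocyte genes had 1 higher (Lep) and 2 lower (Cfd and Plin4) of 10. B cell genes had 4 higher of 8 (Ms4a1, Cd79a, Cd79b and Pax5) and Schwann cell genes 4 lower of 6 tested (among them S100b and Prx). Epithelial genes had 1 lower of 2 tested (Trp63), with the keratins Krt5 and Krt14 at 3 counts or fewer in every library.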

How the data were processed

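Total RNA, depleted of ribosomal RNA and made into strand-marking libraries per the labels' protocols, was sequenced in 10 libraries. The authors deposited whole-number counts per gene without normalization in a single table. STAR 2.5.2b, featureCounts 1.5.1, DESeq2 1.16.0 and GRCm38 are the tools and build given per the submitters' processing notes. Whether counting used the strand is not given in the sources, so reads of a member and of an overlapping gene may be mixed. Groups follow the genotype label, and replicates were numbered in the order of the records. Of the 52636 identifiers, 52403 had a symbol in GENCODE M21.

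In R 4.3.3, filterByExpr left 15927 genes, TMM factors scaled them, and edgeR 4.0.16 compared the groups with its two-sided quasi-likelihood test (Benjamini-Hochberg over all tested genes, threshold 0.05, no covariate), checked on simulated data. DESeq2 1.42.0, limma 3.58.1, other scalings, no filter and leaving out each library were alternatives. Levels per kilobase used exon lengths of GENCODE. Library pairs within groups differed by more than sampling noise (chi-square per degree of freedom 7.28 to 29.7). All 39 members are named by rule, with up to 4 genes of smallest p per other list, though values of some listed genes are not reported here. The members and lists were chosen with earlier results of these data known, so no p over the list is given.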

Additional observations from a re-analysis of the deposited data

Results flagged for a closer look

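Dixon's criterion asks whether the highest or lowest of 5 libraries lies farther from its neighbour than 0.71 of the whole range. It was applied to 81 groups of values and picked out 28. Chance picks out about 1 in 20 groups where the values are normally distributed. It was applied here to CPM without a log, and skewed values or low counts can be picked out more often. The members also share libraries, so these are not separate events.

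Control 5 accounted for 21. Among fast genes it was the high library for Myh4 (129.8 CPM), Tnnt3 (54.0), Pvalb (37.0), Mylpf (27.5), Tnni2 (25.7), Actn3 (24.5), Atp2a1 (18.1) and Mybpc2 (14.9). Among shared genes it was high for Acta1 (204 CPM), Ckm (47.1), Eno3 (18.1), Pygm (12.9), Ldb3 (7.68), Ampd1 (3.99), Tcap (3.58), Cacna1s (2.46), Myot (1.76) and Smpx (0.938). Its sums were high as well, at 893 CPM for all members, 408 for the fast and 483 for the shared genes.

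Control 4 stood apart for Myh2 (2.23 CPM) and Mb (0.811 CPM), and control 1 for Myl3 (0.298 CPM) and Tnni1 (0.238 CPM), the last pair on 5 counts or fewer. Knockout 1 stood apart for Mb (3.22 CPM) and for the summed slow genes (4.19 CPM), and knockout 4 was low for Tnni1 (0.0664 CPM, a single count). No fast or shared sum singled out a knockout library, since knockout 1 and knockout 3 were both high.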

How the results depend on the processing

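Over 24 tested members and 15 alternative settings, 345 of 360 fold changes kept their direction and their side of the threshold, 11 came to pass it and 4 changed sign. The sign changes were Myh1 without control 3 (-0.10) and without knockout 1 (-0.11), and Myl1 (-0.04) and Acta1 (-0.16) without knockout 1. Leaving out 1 library at a time, the log2 fold change ran from -0.11 to 0.72 for Myh1, from -0.04 to 0.48 for Myl1 and from -0.16 to 2.07 for Acta1, and that of Tcf7l2 from -0.92 to -0.84. The members called higher numbered 0 in the main result, 1 without a filter, 2 with limma-voom and 0 to 8 leaving out a library. The genes changed in all numbered 2053, 3605 with limma-voom and 537 to 3094 leaving out a library. The cause was not tested. Leaving out 1 library, the other lists gave 0 to 3 higher and 0 to 2 lower for other skeletal muscle genes. Cardiac genes gave 0 to 1 lower, and smooth muscle genes 0 to 1 higher and 0 to 3 lower. Mature adipocyte genes gave 0 to 2 higher and 1 to 2 lower. Brown and beige adipocyte genes gave 3 to 4 higher and 0 to 2 lower. B cell genes gave 0 to 5 higher, epithelial genes 0 to 1 lower and Schwann cell genes 1 to 4 lower. The median log2 ratio of fast to slow genes in the controls was 5.22, and 1.37 without Myl1 and Pvalb, an alternative chosen after seeing the data. RLE factors and TMM factors without muscle genes called 2046 and 2052 genes in all and 0 members. No paired analysis was possible because the replicate numbers only follow the order of the records. At this depth the slow genes, with 17 to 73 counts per library in all, allow no firm order.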

Other observations

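Genes outside the lists were searched for the same libraries, by a rule chosen after the values were seen. Of 14585 genes with at least 30 counts in some library, 30 were at least 2-fold higher in each of control 5, knockout 1 and knockout 3 than in any of the other 7 libraries, after adding 0.2 CPM. They comprised 16 members, 9 other skeletal muscle genes (among them Myoz1, Mylk4, Klhl41, Myom2, Pgam2 and Mylk2) and 5 in no list. Klhl31, a gene of skeletal muscle, was at 3.69, 3.79 and 4.02 CPM in those 3 libraries and at most 0.486 CPM elsewhere. Hfe2, which encodes hemojuvelin and is made in muscle and liver, was at 1.29, 2.41 and 1.85 CPM. Eef1a2, the elongation factor form of muscle and neurons, was at 2.81, 5.74 and 3.50 CPM, and Asb2 at 3.75, 5.52 and 3.03 CPM. Ighg2b, an immunoglobulin constant region gene, was at 4.86, 20.2 and 5.21 CPM, against 0.182 to 2.12 CPM in the other libraries.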
